A study of Mus musculus with 6 samples.

Results

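The genes described here encode enzymes that use up arginine or tryptophan or that make prostaglandins or adenosine, together with the enzyme that removes adenosine and a receptor that senses it. The 10 genes were chosen by symbol: Arg1, Arg2, Nos2, Ido1, Tdo2, Ptgs2, Entpd1, Nt5e, Ada and Adora2a. All 10 were found among the 770 genes of the deposited table, and all 10 symbols are current in RefSeq. RNA came from archived primary tumours, fixed in formalin and embedded in paraffin, of mice in which 4NQO, a chemical carcinogen, had induced squamous cell carcinoma of the mouth; both groups had it. One group of 3 samples received vehicle and the other group of 3 received an agonistic antibody to CD40, an activating receptor of antigen-presenting cells. The sources used here do not give mouse strain, sex, age, dose or time of sampling, nor whether the 3 samples of a group were separate animals, so p-values measure the spread between samples alone, part of which may be technical.

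Arginine is the shared substrate of the arginases, which split it into ornithine and urea, and of the inducible nitric oxide synthase, which turns it into nitric oxide; loss of local arginine restrains T cells. Tryptophan is opened to kynurenine by Ido1 or Tdo2 with a like effect. Extracellular ATP is degraded stepwise by CD39 and CD73 to adenosine, which damps lymphocytes through the adenosine 2A receptor until adenosine deaminase converts it to inosine. In tumours these enzymes are best known from myeloid cells, but several are also made by epithelium, and mouse oral and upper digestive epithelium is a rich source of adenosine deaminase.

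Values are the authors' deposited log2 normalized counts, differences are anti-CD40 minus vehicle on that log2 scale, and libraries are called vehicle 1 to 3 and anti-CD40 1 to 3. Each library held 333400 to 578598 whole counts over the 770 genes, as recovered from these values. The background limit of a library was set at 2 SD above the mean count of its 8 negative controls, which came to 24.7 to 26.6 counts, or 5.57 to 6.52 on the log2 scale. Of 7 measured epithelial and carcinoma markers, 5 lay above background in all 6 libraries, with Cdh1, the epithelial cadherin, between 11.94 and 12.51. Immature granule genes set 3 libraries apart: the mean of the 7 measured markers was 9.01, 9.14 and 7.72 in vehicle 2, anti-CD40 1 and anti-CD40 2, and 5.47 to 5.90 in the others. The mean of 9 B cell markers was also higher in these 3 libraries, at 7.26, 6.52 and 6.60, beside 5.56 to 5.84 in the others. Of these 9 markers, 1 lay above background in all 6 libraries. Cd40 itself was 6.98 ± 0.42 in vehicle and 6.73 ± 0.49 in anti-CD40 samples (SD, n = 3 each). In bulk RNA of this kind, fewer cells of a type and less RNA per cell cannot be told apart.

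The comparison asked whether these genes differed between tumours given the agonistic antibody and tumours given vehicle. None of the 10 passed the test, with adjusted p-values from limma between 0.974 and 0.988, and the same fit called none of the 770 genes at an adjusted threshold of 0.05 (0%). At an unadjusted p under 0.05 it counted 25 of the 770 genes (3.25%) and 1 of the 10 members, Tdo2, the liver-type tryptophan dioxygenase. Limma-voom on the recovered counts also called 0 genes (0%) and counted 26 (3.38%) and 1 member at an unadjusted p under 0.05. Of the members, 5 had a higher mean and 5 a lower mean in anti-CD40 samples, with a median difference of 0.0095, beside 420 higher, 350 lower and a median of 0.038 over all genes. The 3 libraries of each group failed to overlap for Tdo2 alone, 1 of the 10, where 79 of the 770 genes (10.3%) had groups that did not overlap. For 6 members, Arg1, Arg2, Nos2, Ido1, Entpd1 and Nt5e, the 95% confidence interval, not adjusted for the number of genes, lay within a 2-fold change in either direction. An interval of this kind was found for 402 of all 770 genes (52.2%). For Nos2 and Ido1, which lay near or below background, it describes a signal that is partly background.

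**Figure D1:**
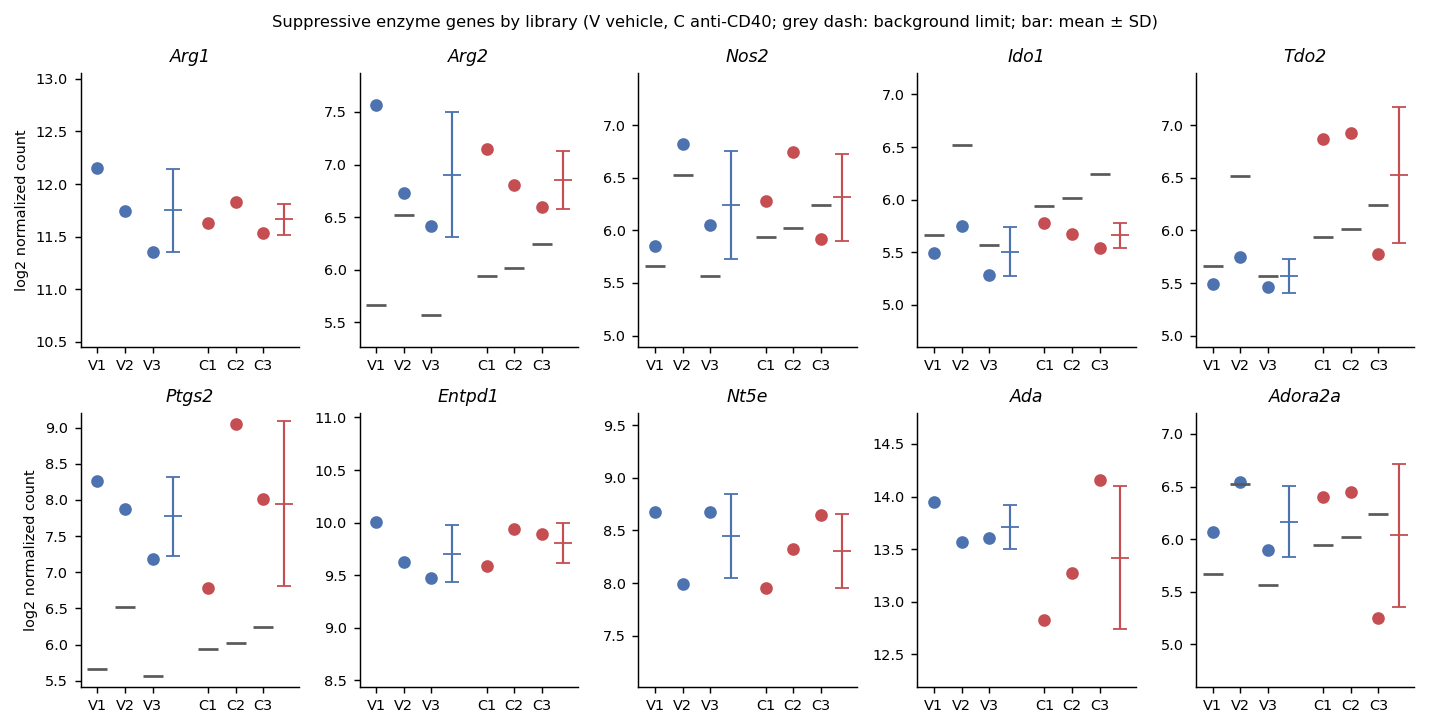
Each panel shows 1 gene, with the log2 normalized count on the vertical axis (each panel spans its own range) and the 6 libraries on the horizontal axis, blue for vehicle (V1 to V3) and red for anti-CD40 (C1 to C3); bars give the group mean ± SD and grey dashes the background limit of each library where it falls within the range. The groups overlap in every panel but that of Tdo2, where C3 at 5.78 lies just above V2 at 5.75, and all 6 Ido1 points lie under their limits.

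**Figure D2:**
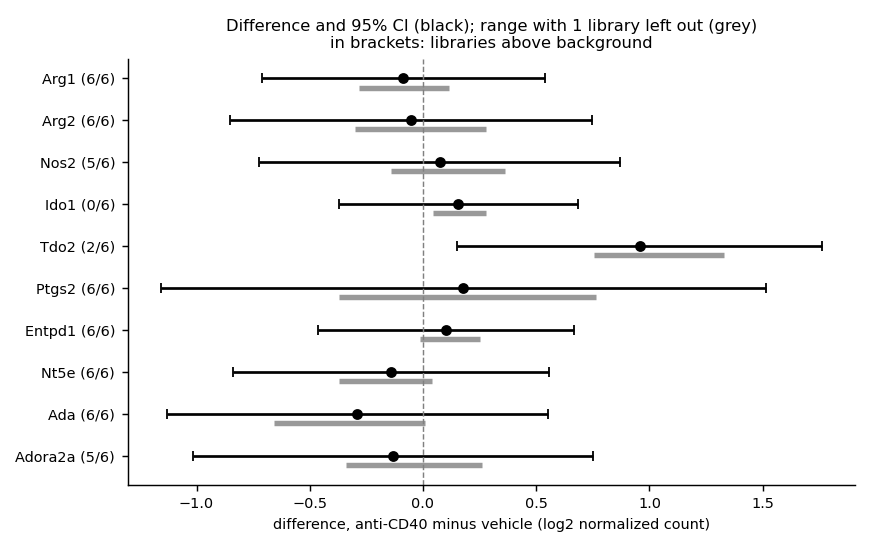
Black points show the difference of each gene, anti-CD40 minus vehicle, on the log2 scale, with the 95% confidence interval from limma; grey bars show the range of the difference when 1 library is left out, and the brackets give the number of libraries above background. The interval of Tdo2, from 0.15 to 1.76, is the 1 interval that lies off 0, and Ptgs2 has the widest, from −1.16 to 1.51.

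Tryptophan breakdown was the part of the set with the largest difference, and it was measured close to the detection limit. Tdo2 was 5.49, 5.75 and 5.46 in vehicle 1 to 3 and 6.87, 6.93 and 5.78 in anti-CD40 1 to 3. It was thus raised in 2 of the 3 anti-CD40 libraries, while the third lay at the level of the vehicle libraries. The group means were 5.57 ± 0.16 and 6.52 ± 0.65 (SD, n = 3), a difference of 0.96 (SE 0.34). With limma the unadjusted p of Tdo2 was 0.026 and its adjusted p 0.974. Limma gave no member, Tdo2 included, an unadjusted p under 0.05 without vehicle 1, vehicle 3, anti-CD40 1 or anti-CD40 2. The difference ranged from 0.76 without anti-CD40 2 to 1.33 without anti-CD40 3. It was 0.30 without vehicle 2, anti-CD40 1 and anti-CD40 2, the libraries rich in granule genes. That setting leaves out both libraries with raised Tdo2 and keeps anti-CD40 3 as the only anti-CD40 library. A smaller difference was therefore set in advance. In vehicle 2, the third of the libraries rich in granule genes, Tdo2 was below the background limit, which at 6.52 was the highest of the 6. The part of granule or B cell content in the Tdo2 values was not tested.

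In whole counts, Tdo2 reached 22, 15 and 23 in vehicle 1 to 3, against 49, 48 and 18 in anti-CD40 1 to 3. Only anti-CD40 1 and 2 exceeded their background limits, and their 95% Poisson intervals, which cover counting error only, ran from 36.3 to 64.8 and from 35.4 to 63.6 counts. The 18 counts of anti-CD40 3 were fewer than those of vehicle 1 and 3 and became the larger log2 value through a larger scaling factor, 2.80 beside 1.84 and 1.72. After subtraction of the negative control mean, the normalized counts of Tdo2 were 10.8, 4.92 and 15.7 in vehicle and 75.8, 79.0 and 15.7 in anti-CD40 libraries. The log2 difference on that scale was 2.27, against 0.96 as deposited, but it rests on vehicle values of few counts over the negative controls. Anti-CD40 3 and vehicle 3 were level, and the groups were separated by anti-CD40 1 and 2.

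Ido1, the interferon-inducible enzyme of the same reaction, gave 22, 15 and 20 counts in vehicle 1 to 3 and 22, 19 and 15 in anti-CD40 1 to 3. Every library was below its limit, and the negative controls themselves spanned 5 to 25 counts. A difference between the groups was not detectable at this depth: the log2 means were 5.51 ± 0.23 and 5.66 ± 0.12 (SD, n = 3), 0.16 apart with an interval from −0.37 to 0.68. Of 6 further tryptophan genes listed (Ido2, Kynu, Kmo, Ahr, Eif2ak4 and Il4i1), none was analysed here.

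**Figure D3:**
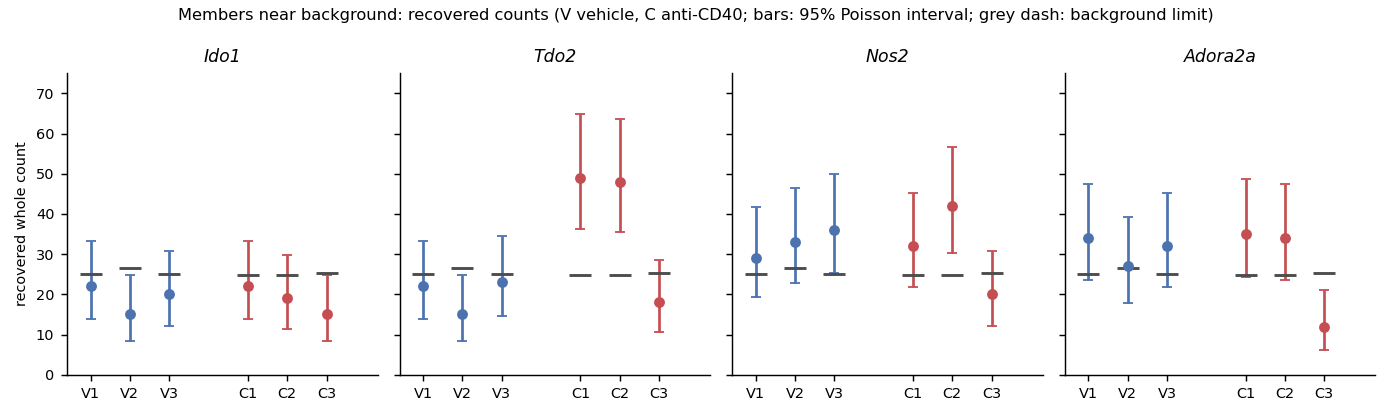
Recovered whole counts of the 4 members nearest background are shown per library (V1 to V3 vehicle in blue, C1 to C3 anti-CD40 in red), with 95% Poisson intervals as bars and each library's background limit as a grey dash. Tdo2 exceeds its limit in C1 and C2 only, with 49 and 48 counts, Ido1 exceeds it in none, and Nos2 and Adora2a fall below it in C3, with 20 and 12 counts.

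Arg1, the cytosolic arginase made by alternatively activated myeloid cells, was strongly detected. It was 12.15, 11.74 and 11.36 in vehicle 1 to 3 and 11.63, 11.83 and 11.53 in anti-CD40 1 to 3, that is, 1044 to 2474 counts per library. All 3 anti-CD40 values fell between the highest and the lowest vehicle value. The means were 11.75 ± 0.40 and 11.66 ± 0.15 (SD, n = 3), a difference of −0.086 (SE 0.27) with an interval from −0.71 to 0.54, or 0.611-fold to 1.45-fold. Without vehicle 1 the difference was 0.11.

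Arg2, the mitochondrial arginase, was 7.57, 6.73 and 6.41 in vehicle and 7.15, 6.81 and 6.60 in anti-CD40 libraries, on 31 to 101 counts. Vehicle 1 was again the highest and vehicle 3 the lowest, and the anti-CD40 libraries lay between them. The means, 6.90 ± 0.60 and 6.85 ± 0.28 (SD, n = 3), were −0.054 apart (SE 0.34), with an interval from −0.85 to 0.75. The sign turned without vehicle 1 (0.28) and without anti-CD40 3 (0.072).

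Nos2, the inducible nitric oxide synthase of classically activated macrophages, was 5.85, 6.82 and 6.05 in vehicle and 6.28, 6.74 and 5.92 in anti-CD40 libraries. The 3 highest values were those of vehicle 2, anti-CD40 2 and anti-CD40 1, the libraries rich in granule genes. The order in whole counts was another: 29, 33 and 36 in vehicle and 32, 42 and 20 in anti-CD40 libraries, with anti-CD40 3 below background. The difference was 0.073 (SE 0.34, interval −0.72 to 0.87). Leaving out vehicle 1, vehicle 3 or anti-CD40 2 turned its sign, to −0.12, −0.021 and −0.14, as did subtraction of the negative controls, to −0.061. The 7 other arginine genes listed, which cover transport, resynthesis, ornithine decarboxylase and the neuronal and endothelial nitric oxide synthases, were not analysed here.

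Ptgs2, the inducible cyclooxygenase that starts prostaglandin synthesis, varied more between libraries than any other member. It was 8.26, 7.87 and 7.18 in vehicle 1 to 3 and 6.78, 9.05 and 8.02 in anti-CD40 1 to 3. The anti-CD40 group thus held both the lowest and the highest of the 6 libraries, 2.27 apart on the log2 scale, or 46 and 215 counts. Its SD over the 6 libraries, 0.80, stood at the 93.1 percentile of the 770 genes. The means were 7.77 ± 0.54 and 7.95 ± 1.14 (SD, n = 3) and the difference 0.18 (SE 0.57, interval −1.16 to 1.51). Without anti-CD40 2 the difference was −0.37, without vehicle 3 it was −0.12, and without anti-CD40 1 it was 0.76.

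Beside Ptgs2, the mean of 13 genes of interleukin 1, tumour necrosis factor, Toll-like receptor and NF-κB signalling, all measured and known to induce it, was 9.31, 9.05 and 8.85 in vehicle and 8.69, 9.35 and 8.98 in anti-CD40 libraries. Anti-CD40 2 and vehicle 1 were the highest and vehicle 3 and anti-CD40 1 the lowest in both. The mean of the 8 measured neutrophil markers was 8.35, 8.50 and 7.39 in vehicle and 8.27, 9.01 and 7.65 in anti-CD40 libraries. It was highest in anti-CD40 2, as Ptgs2 was, but lowest in vehicle 3, whereas Ptgs2 was lowest in anti-CD40 1. The part of neutrophil content in the Ptgs2 values was not tested. Of 19 further genes of prostanoids, leukotrienes and phospholipases listed, 4 rows were measured, which stand for 3 genes because Gpr44 is an older name of the prostaglandin D2 receptor gene Ptgdr2 and both names have a row. None of the 4 rows passed the test, 3 had a higher and 1 a lower mean, and their median difference was 0.12, with a negative sign without vehicle 3 (−0.12), without anti-CD40 1 (−0.034) and after subtraction of the negative controls (−0.38). Only 2 of the 4 rows lay above background in at least 3 libraries, and 1 lay above it in none, so these values are partly background. The calcium-independent phospholipase gene Pla2g6 was 8.09 ± 0.44 and 8.26 ± 0.52 (SD, n = 3), 0.17 apart in the mean; this turned to −0.067 without vehicle 3 and to −0.12 without anti-CD40 1. Gpr44 differed by −0.025, but by 0.18 without vehicle 2 and 0.056 without anti-CD40 1; the row named Ptgdr2 exceeded background in 1 library.

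The 3 adenosine enzymes, Entpd1, Nt5e and Ada, were well above background in all libraries, with 76 to 8632 counts. Entpd1, which encodes CD39, was 10.004, 9.63 and 9.48 in vehicle and 9.59, 9.94 and 9.89 in anti-CD40 libraries. Its groups overlapped, and its range of 0.53 was narrow: its SD stood at the 17.1 percentile of all genes. The difference was 0.10 (SE 0.24, interval −0.46 to 0.67), and −0.012 without vehicle 3.

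Nt5e, which encodes CD73, the enzyme that forms adenosine from AMP, was 8.68, 7.99 and 8.67 in vehicle and 7.95, 8.32 and 8.65 in anti-CD40 libraries. Each group held 1 library near 8, vehicle 2 and anti-CD40 1. The difference was −0.14 (SE 0.30, interval −0.84 to 0.56) and became 0.038 without anti-CD40 1.

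Ada, adenosine deaminase, was 13.95, 13.57 and 13.61 in vehicle and 12.83, 13.28 and 14.16 in anti-CD40 libraries. The anti-CD40 values ran to both sides of the vehicle values, with 2 libraries below all 3 vehicle libraries and 1 above them. The means were 13.71 ± 0.21 and 13.42 ± 0.68 (SD, n = 3), a difference of −0.29 (SE 0.36, interval −1.13 to 0.55). The Ada difference was 0.0067 without anti-CD40 1 and −0.66 without anti-CD40 3. It was 0.38 without vehicle 2, anti-CD40 1 and anti-CD40 2, a setting that keeps anti-CD40 3, the library with the most Ada, as the only anti-CD40 library. The mean of the 7 epithelial markers was 10.23, 10.07 and 10.28 in vehicle and 9.80, 10.13 and 10.03 in anti-CD40 libraries, so anti-CD40 1 was lowest in both. The single markers ran different ways in vehicle 1 and anti-CD40 3, the 2 libraries with the most Ada, as seen in 2 named after their values were seen. Muc1, an epithelial mucin gene, was highest there, at 8.27 and 8.23 beside 6.02 to 6.49 in the others, and Epcam, an epithelial adhesion gene, was lowest there, at 10.16 and 10.38 beside 11.02 to 11.52. Cdh1 had its lowest value, 11.94, in anti-CD40 3, where Ada was highest. Among the remaining markers, Egfr was highest in anti-CD40 3 (10.25), Itga6 and Itgb4 in vehicle 3 (13.38 and 12.26) and Cd44 in anti-CD40 2 (6.87). The part of epithelial content in the Ada values was not tested.

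Adora2a, the adenosine 2A receptor gene, was 6.06, 6.54 and 5.90 in vehicle and 6.40, 6.45 and 5.25 in anti-CD40 libraries. Its counts were 34, 27 and 32 in vehicle and 35, 34 and 12 in anti-CD40 libraries, so that 5 libraries lay just above their limits and anti-CD40 3 lay below the mean of its negative controls, 12.4. The difference of −0.13 (SE 0.38, interval −1.01 to 0.75) was 0.26 without anti-CD40 3 and 0.056 without vehicle 2. Of 10 further purine genes listed, Cd38 and Dpp4 were measured. Cd38, an ectoenzyme that consumes NAD, was 8.46 ± 0.73 and 9.04 ± 0.13 (SD, n = 3), 0.58 apart, and 0.31 without vehicle 3 or 0.995 without vehicle 2. Dpp4, whose product CD26 binds adenosine deaminase at the cell surface, was 7.72 ± 0.61 and 7.95 ± 0.41, and its difference of 0.22 became −0.012 without anti-CD40 1. Neither passed the test.

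Because these enzymes compete for a substrate or act in sequence, 3 balances were computed within each library as log2 differences, which depend little on that library's scaling factor. Levels of different probes cannot be set against each other, so only the change of a balance between libraries has a meaning. With 3 libraries per group, the two-sided exact permutation test cannot give a p below 0.1.

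Arg1 minus Nos2 was 6.30, 4.93 and 5.30 in vehicle and 5.35, 5.08 and 5.61 in anti-CD40 libraries. The anti-CD40 libraries again lay inside the vehicle range, with a difference of −0.16 that became 0.24 without vehicle 1 (exact permutation p = 0.9, n = 3 per group, adjusted over the 3 balances 0.9). After subtraction of the negative control mean the difference was −0.028. Nos2 lay near background, and below it in anti-CD40 3, so this balance rests in part on background signal.

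The mean of Entpd1 and Nt5e minus Ada, which sets formation against removal of adenosine, was −4.61, −4.76 and −4.54 in vehicle and −4.06, −4.15 and −4.89 in anti-CD40 libraries. Here anti-CD40 1 and 2 were above all vehicle libraries and anti-CD40 3 below them. Ada alone already set anti-CD40 1 and 2 below all vehicle libraries and anti-CD40 3 above them, so this order is no separate observation. The difference was 0.27, 0.53 without anti-CD40 3, and 0.12 and 0.16 without anti-CD40 1 or 2 (exact permutation p = 0.4, n = 3 per group, adjusted 0.6).

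Ido1 minus Tdo2 was 0, 0 and −0.18 in vehicle and −1.09, −1.26 and −0.24 in anti-CD40 libraries. The groups did not overlap, though vehicle 3 and anti-CD40 3 were close, and the difference was −0.80 (exact permutation p = 0.1, n = 3 per group, adjusted 0.3). After subtraction of the negative control mean the difference of this balance was −2.07. As Ido1 lay at background throughout, this balance repeats the Tdo2 values and adds no second measurement.

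**Figure D4:**
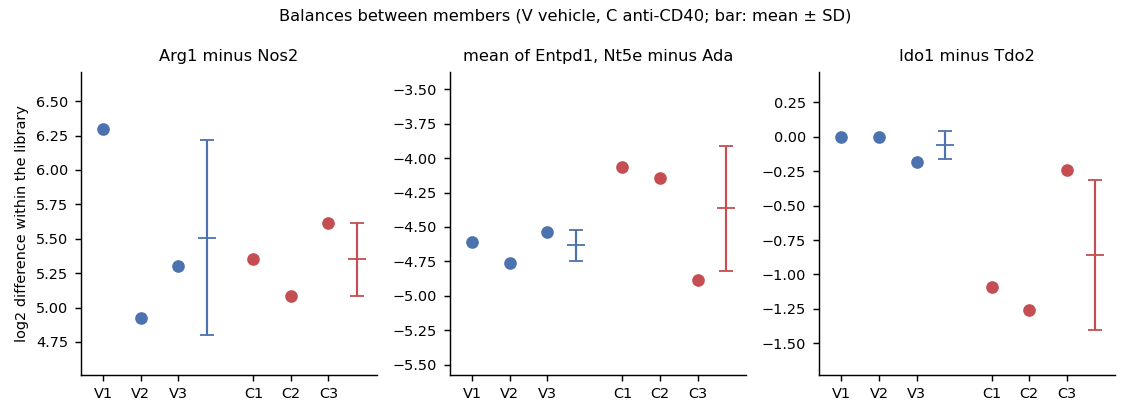
Each panel shows a balance between members as the log2 difference within a library (vertical axis, spanning the same number of log2 units in each panel), for vehicle (V1 to V3, blue) and anti-CD40 (C1 to C3, red), with group means ± SD as bars. The first 2 panels show overlapping groups; in the panel of Ido1 minus Tdo2, C1 and C2 lie near −1.09 and −1.26 and C3, at −0.24, lies beside V3, at −0.18.

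Several members took their extreme values in the same libraries. Vehicle 1 was the highest library for 4 of the 10, Arg1, Arg2, Entpd1 and Nt5e, and vehicle 3 the lowest for 5, Arg1, Arg2, Ido1, Tdo2 and Entpd1. Over all 770 genes, vehicle 1 was the highest library for 172 (22.3%) and vehicle 3 the lowest for 320 (41.6%). Vehicle 3 also had the lowest median of all genes, 7.68, beside 7.90 to 8.19 in the other libraries, whereas its housekeeping mean of 11.05 lay within the range of the others. Nos2 and Adora2a shared their 3 highest libraries, vehicle 2 and anti-CD40 1 and 2, on the log2 scale but not in whole counts.

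Genes upstream of these enzymes, and genes that mark the same signals or cell states, were set beside them. A list of 11 genes around the induction of Arg1 covered interleukin 4 and interleukin 13 signalling and also Cebpb, Il10, Il10ra and Hif1a. Of these 11, 4 had a higher and 7 a lower mean in anti-CD40 samples, with a median difference of −0.093. Leaving out anti-CD40 1 moved this median to 0.0085, and leaving out anti-CD40 2 moved it to −0.23. The 3 of lowest p were the interleukin 10 receptor gene Il10ra (8.04 ± 0.33 and 7.64 ± 0.30), Hif1a, the oxygen-sensing transcription factor (13.63 ± 0.32 and 13.17 ± 1.03), and the interleukin 13 receptor gene Il13ra1 (10.77 ± 0.36 and 10.50 ± 0.40). In each such pair the vehicle value comes first, with SD and n = 3. The difference of Il10ra was −0.40, and −0.26 and −0.25 without vehicle 2 or anti-CD40 1. That of Il13ra1 was −0.27, but −0.10 and −0.091 without vehicle 1 or anti-CD40 1, and −0.46 and −0.48 without vehicle 2 or anti-CD40 2. Hif1a, which is known to drive both Arg1 and Ptgs2, was 13.42, 13.47 and 14.00 in vehicle and 12.49, 14.35 and 12.67 in anti-CD40 libraries. It was thus lowest in anti-CD40 1 and highest in anti-CD40 2, as Ptgs2 was, but not as Arg1 was. Its difference was −0.46, and −0.27 when vehicle 3 was left out; leaving out anti-CD40 1, 2 or 3 gave −0.12, −1.05 and −0.21.

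Of 10 measured genes of alternative activation, the state marked by Arg1, 7 had a higher and 3 a lower mean, with a median difference of 0.38, and 0.17 without either vehicle 3 or anti-CD40 1. The scavenger receptor genes Cd163 and Mrc1 were higher by 0.67 and 0.38 in the mean, and the chemokine gene Ccl22 lower by 0.59 in the mean (difference −0.59), all 3 with groups that did not overlap. Without vehicle 3 the differences of Cd163 and Mrc1 were 0.39 and 0.20. Beside this list, 7 of the 10 measured macrophage and monocyte markers also had a higher mean, with a median difference of 0.32. That marker list shares Cd163, Mrc1 and Marco with the list of alternative activation, and the part of macrophage content was not tested. Arg1 itself, with a difference of −0.086, lay on the other side of 0 from the median of this list. Groups failed to overlap in the higher direction for 52 of all genes (6.75%) and in the lower direction for 27 (3.51%).

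Of 13 measured genes of the interferon gamma arm, which induces Ido1 and Nos2, 4 had a higher and 9 a lower mean, with a median difference of −0.43. With 1 library left out this median ranged from −0.63 (vehicle 3) to −0.30 (vehicle 1). The list mean was 9.30, 8.60 and 8.41 in vehicle and 8.04, 8.57 and 8.31 in anti-CD40 libraries, so the groups overlapped. This list also holds genes that interferon gamma itself induces, among them Cd274 and Ciita. Beside the interferon list, all 7 measured dendritic cell markers had a lower mean (median difference −0.33), as had 9 of 10 T cell markers (median −0.21). Only 3 of these 7 and 4 of these 10 lay above background in all 6 libraries, and 1 and 2 lay above it in none. The part of these cells in the interferon values was not tested. The interferon list genes of lowest p were Cd274, which encodes PD-L1 (−1.03), Ciita, the class II transactivator (−0.78), and Irf1 (−0.70). Without vehicle 1 the differences of Cd274 and Irf1 were −0.68 and −0.38. Nos2, at 0.073, and Ido1, at 0.16 but below background, lay above this median; that difference was not tested.

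Of the 13 inducers of Ptgs2, 7 had a higher and 6 a lower mean, with a median of 0.11 that ranged from 0.014 to 0.19 with a single library left out. The 3 of lowest p were the interleukin 1 alpha gene Il1a (8.25 ± 0.56 and 7.78 ± 0.04), the endotoxin receptor gene Tlr4 (9.10 ± 0.14 and 9.34 ± 0.05) and Tnf (6.72 ± 0.09 and 6.46 ± 0.37). Il1a differed by −0.47, and by −0.28 without vehicle 2 or −0.79 without vehicle 3. Tnf differed by −0.26, and by −0.10 without anti-CD40 1 or −0.46 without anti-CD40 2. No gene of these 4 lists passed the adjusted threshold with limma. At an unadjusted p under 0.05 were Ccl22, 1 of the 10 measured genes of its list, and Cd274, 1 of 13. The lists around Arg1 and Ptgs2 induction held none. Over all 770 genes, 25 (3.25%) had an unadjusted p under 0.05.

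**Figure D5:**
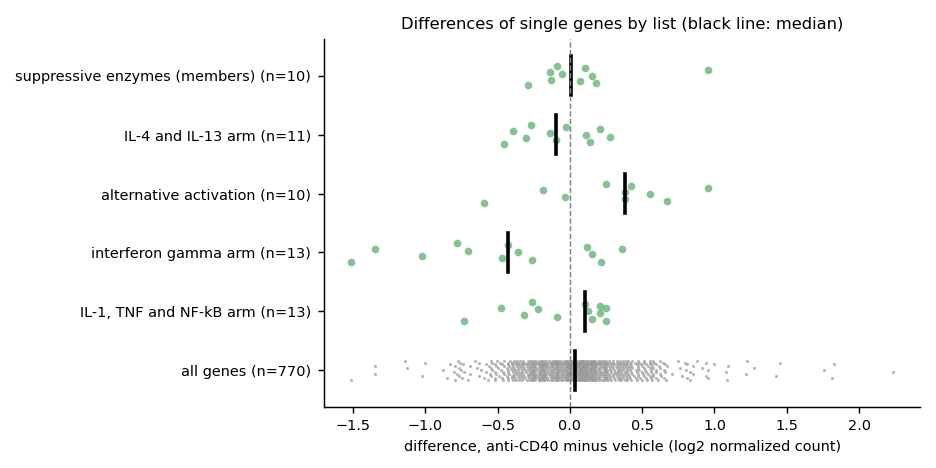
Each point is the difference of 1 gene, anti-CD40 minus vehicle, in log2 normalized counts, grouped by list on the vertical axis, and black lines mark the medians; vertical scatter within a list carries no meaning. The 10 members centre on 0.0095 with Tdo2 at 0.96 apart from the rest, while the medians of the other lists run from −0.43 for the interferon gamma arm to 0.38 for alternative activation.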

How the data were processed

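The series measured 770 genes in 3 samples given vehicle and 3 given anti-CD40. The authors' deposited table gives log2 normalized counts, per its name; the sources used here do not give its platform, software, normalization or filters. The table holds 784 rows, of which 6 are positive and 8 negative controls. The values proved to be log2 of (factor × count + 4.55), with 1 factor per library and the same added constant in all: solved for the count, 4704 of 4704 values fell within 0.05 of a whole number. That constant and the unsubtracted background understate differences of genes with few counts.

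All 770 genes were fitted with limma 3.58.1 (R 4.3.3; lmFit and eBayes, without trend or robust variances) using the log2 values as deposited, two-sided, with Benjamini-Hochberg adjustment over all genes and a threshold of 0.05. There were 4 residual and 3.37 prior degrees of freedom. The procedure was tested on simulated data. Python 3.11.15 and matplotlib 3.10.9 drew the figures. Every member is named; of each context list, the 3 genes of lowest p above background in at least 3 libraries are named. Members and lists were chosen with earlier results of these data known. Each library was counted as a sample. Chi-square statistics between replicate pairs, divided by their degrees of freedom, were 64.2 to 121, a spread beyond counting error. This spread cannot show whether the libraries came from separate animals. Groups share replicate numbers, but deviations of same-numbered libraries correlated by −0.43, 0.069 and 0.28, so the numbers were not used as pairs. Other normalizations, a background filter and subtraction, limma-voom, a replicate block and leaving out libraries were tried as alternatives.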

Additional observations from a re-analysis of the deposited data

How the results depend on the processing

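Limma called 0 members and 0 context genes under every alternative, and 0 of all genes (13 to 52 at an unadjusted p under 0.05 in the alternatives with all or 5 libraries) except in 2 settings. Subtracting the negative control mean called 1 gene, Masp2, which was at the floor in at least 1 library. Leaving out vehicle 2, anti-CD40 1 and anti-CD40 2, which rests on 1 anti-CD40 library assumed to vary like the others, called 2, Ppbp and Cxcl13. The background filter, the trend and robust variances and the replicate block leave each difference unchanged, so their signs were fixed in advance. Centring on housekeeping genes or library medians shifts all differences alike, by less than any member difference. Of 87 member differences under settings other than leaving out a single library, these included, 84 kept their sign. The exceptions were Nos2 after subtraction (−0.061), Nos2 and Ada without those 3 libraries (−0.033 and 0.38); among context genes Gpr44 also turned there (0.18). With a single library left out, 47 of 60 member differences kept their sign. The ranges were −0.28 to 0.11 for Arg1, −0.30 to 0.28 for Arg2, −0.14 to 0.36 for Nos2, 0.044 to 0.28 for Ido1, 0.76 to 1.33 for Tdo2, −0.37 to 0.76 for Ptgs2, −0.012 to 0.25 for Entpd1, −0.37 to 0.038 for Nt5e, −0.66 to 0.0067 for Ada and −0.34 to 0.26 for Adora2a. They were −0.48 to 0.028 without 1 library for Cd40, −0.12 to 0.38 for Pla2g6, −0.20 to 0.18 for Gpr44 and −0.012 to 0.57 for Dpp4, and −0.45 to 0.24 for Arg1 minus Nos2. The cause was not tested. Adora2a gave no value after subtraction, and Ido1 and Tdo2 none under the background filter. With the replicate block, limma again called 0 genes and 0 members; the balance of Ido1 minus Tdo2 within replicate numbers was −0.80 (exact permutation p = 0.25, the smallest that 3 pairs allow). Scaling voom by TMM was planned and not run; the voom fit with the deposited factors was chosen after the data were seen. Depth limits Ido1, Tdo2, Nos2 and Adora2a, at 12 to 49 counts.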
